A study of Mus musculus with 8 samples.

Results

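The nuclear-encoded respiratory chain genes are the chromosomal genes for the subunits of the 5 complexes of oxidative phosphorylation, with some of their assembly factors. They were chosen by gene symbol alone (Nduf followed by a, b, c, s or v; Sdha to Sdhd; Uqcr; Cox4 to Cox8; Atp5), and 89 of the 15336 genes in the count table matched. Of these, 44 belong to complex I, 4 to complex II, 9 to complex III, 16 to complex IV and 16 to complex V. Complex I holds 36 subunits and 8 assembly factors, and Ndufa4, named for complex I, is placed in complex IV, where its protein is now known to sit. Complex III includes 1 pseudogene, Uqcrh-ps1, and complex V includes Atp5s, a coupling factor that is no lasting subunit.

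Messenger RNA was sequenced from Ly6Chi monocytes, which leave the blood for inflamed tissue, after cell sorting from the livers of 8 mice. All were male C57BL/6 mice 8 weeks old, fasted and given 300 mg/kg acetaminophen into the peritoneum 24 h earlier, a dose that kills hepatocytes. The 4 controls (animals 2, 3, 10 and 11) were Commd10fl/fl littermates, whose Commd10 alleles are floxed but intact. The 4 deficient animals (5, 6, 12 and 13) were LysMDCommd10 mice, which carry the same floxed alleles and a Cre driven by the lysozyme M gene, so that Commd10 is deleted in myeloid cells. COMMD10 is a protein of the endosomal sorting machinery. The deficient group alone carries the Cre, so effects of the Cre and of losing COMMD10 cannot be told apart. The animal names are written in 2 ways in the labels, and each spelling holds 2 animals of each group. Animals 2, 3, 5 and 6 form the lower-numbered label set here, and animals 10, 11, 12 and 13 the higher-numbered label set. What parts these sets is not given.

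Respiration passes electrons from NADH into complex I and from succinate into complex II, then through ubiquinone to complex III and through cytochrome c to complex IV, which reduces oxygen. Complexes I, III and IV pump protons, and complex V, the ATP synthase, makes ATP as the protons flow back. Most subunits are encoded in the nucleus and imported, while the mitochondrial genome encodes a few core subunits of complexes I, III, IV and V. Inflammatory activation and low oxygen are known to shift monocytes and macrophages toward glycolysis, and isoforms of some complex IV subunits differ between tissues and oxygen levels.

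Total counts ran from 13327665 to 15759224 per animal, and the 89 genes took 0.687% to 0.771% of them. Commd10 lay at 24.5 to 29.8 CPM (counts scaled to library size) in controls and at 8.74 to 17.0 CPM in deficient animals, and cre had 37 to 122 counts in deficient animals and 0 in controls. The summed CPM of a list of monocyte markers was 20498 to 30824, against 157 to 470 for hepatocyte markers. Neutrophil markers summed to 103 to 239 CPM in controls, against 336 to 647 in deficient animals, with 5 of 12 called higher and none called lower. Kupffer cell markers summed to 1144 to 2097 and 791 to 1142 CPM, with 5 of 10 called lower. Hepatocyte markers summed to 183 to 470 and 157 to 204 CPM, with 5 of 15 called lower. Of the 12 rows of monocyte markers, 3 were called higher and 4 lower. The rows come from 11 listed genes, since Itgam has more than 1 row. The list also holds Lyz2, the lysozyme M gene that drives the Cre, and what this adds to the monocyte markers was not tested. Called lower were also 3 of 8 dendritic cell, 1 of 4 B cell and 1 of 5 endothelial markers. Over all genes tested, 6.59% were called higher and 7.35% lower. Markers of several cell types, the monocytes included, thus move with the genotype, and their part in the results on the respiratory genes was not tested. In bulk samples, fewer cells of a type and less RNA per cell cannot be told apart.

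Small, abundant respiratory messages have many pseudogene copies, so the sequence decides how firmly a count can be tied to its gene. Of the 89 genes, 51 had no 75-base stretch of their main transcript in a transcript of another gene, on either strand. The length was chosen because 75 cycles was the read kit's length. In 22 genes more than 10% of such stretches were shared. The partner was not always a pseudogene. Among the protein-coding partners were Smim27 for Ndufb6 (31.3%), Tssk6 for Ndufa13 (25.6%) and Pdzd9 for Uqcrc2 (23.8%). Cox6c (subunit 6c of complex IV) and Cox7a2l (a subunit 7a relative that ties complexes III and IV together) are shown because both were called between genotypes and both share stretches with a processed pseudogene. Their coding sequences, from GENCODE M21 transcripts on GRCm38 chromosomes 15 and 17, are given up to the first 300 bases, with capitals for the bases that lie in a 75-base stretch shared with Cox6c2 or Gm6969, respectively.
Cox6c: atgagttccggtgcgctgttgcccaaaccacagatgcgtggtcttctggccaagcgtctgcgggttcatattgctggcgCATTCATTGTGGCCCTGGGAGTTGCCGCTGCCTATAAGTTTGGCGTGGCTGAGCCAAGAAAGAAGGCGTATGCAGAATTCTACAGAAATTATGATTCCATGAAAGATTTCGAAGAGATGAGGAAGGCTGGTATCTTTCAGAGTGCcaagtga
Cox7a2l: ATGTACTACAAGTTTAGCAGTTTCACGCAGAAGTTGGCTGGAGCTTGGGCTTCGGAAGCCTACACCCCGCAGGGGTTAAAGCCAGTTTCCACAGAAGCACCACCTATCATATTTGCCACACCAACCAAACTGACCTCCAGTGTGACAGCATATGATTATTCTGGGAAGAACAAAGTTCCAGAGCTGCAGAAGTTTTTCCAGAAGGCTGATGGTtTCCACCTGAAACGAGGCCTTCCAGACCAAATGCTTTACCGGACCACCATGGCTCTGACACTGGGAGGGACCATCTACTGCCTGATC
In Cox6c 145 of 231 coding bases lie in a shared stretch, and 16.6% of the stretches of the whole transcript are shared. In Cox7a2l the figures are 301 of 336 coding bases and 15.3%. Gm6969 had 1 to 8 counts per animal.

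The ring subunit c of the ATP synthase is encoded by 3 genes, Atp5g1, Atp5g2 and Atp5g3, which are known to give the same mature protein from different messages. The last 228 bases of their coding sequences are set side by side to show how far reads can separate the genes, with capitals at the bases of Atp5g1 and Atp5g2 that differ from Atp5g3.
Atp5g3: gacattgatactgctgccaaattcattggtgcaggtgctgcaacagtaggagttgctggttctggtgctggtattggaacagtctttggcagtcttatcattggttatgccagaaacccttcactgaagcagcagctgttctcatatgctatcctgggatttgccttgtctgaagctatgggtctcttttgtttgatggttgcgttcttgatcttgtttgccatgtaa
Atp5g1: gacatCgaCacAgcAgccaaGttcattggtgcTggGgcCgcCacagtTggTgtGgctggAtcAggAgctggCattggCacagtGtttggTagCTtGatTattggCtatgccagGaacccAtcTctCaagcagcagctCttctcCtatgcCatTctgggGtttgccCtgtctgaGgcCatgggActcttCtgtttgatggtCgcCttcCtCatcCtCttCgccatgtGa
Atp5g2: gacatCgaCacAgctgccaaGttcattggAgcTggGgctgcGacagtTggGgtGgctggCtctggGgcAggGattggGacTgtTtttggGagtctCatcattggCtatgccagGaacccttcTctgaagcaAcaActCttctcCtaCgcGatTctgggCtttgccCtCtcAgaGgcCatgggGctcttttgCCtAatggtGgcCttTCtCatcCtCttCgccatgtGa
Atp5g1 differs from Atp5g3 at 46 of these positions, Atp5g2 differs from Atp5g3 at 49, and the first 2 differ from each other at 34. Atp5g3 shared no 75-base stretch with another gene, while every stretch of Atp5g2 was shared with Gm10175. Atp5g1 shared 354 of 4641 stretches (7.63%), mostly with the processed pseudogene Gm10039 (6.68%). Its main transcript has 4715 bases, of which 411 are coding, and where the shared stretches lie is not given here. Atp5l (76% shared) and Cox7c (50.4% shared) are likewise uncertain, since the counting could split their reads among copies.

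Promoters of 250 bases before to 50 bases after a start site were found in the RefSeq table (build GRCm38.p6) for 72 of the 89 genes, as 77 promoters. The 17 genes without one include Ndufs1, Ndufa2, Ndufb9, Ndufaf6, Sdhc, Uqcrc2, Uqcrb, Uqcrq, Uqcrh-ps1, Cox4i1, Cox4i2, Cox6a2, Cox6c, Atp5a1, Atp5f1 and Atp5s. NRF1, ETS family factors such as GABPA, and YY1 are known regulators of respiratory genes. Motifs were searched as exact letters on both strands. The full NRF1 palindrome, shown in capitals in the Atp5k promoter, was in 9.09% of the member promoters and in 0.971% of all 32851 promoters in the table. The shorter NRF1 core GCATGCGC, which the palindrome contains, was in 15.6% and 2.71%. The ETS motif CCGGAAG was in 23.4% and 8.86%, the YY1 motif AAGATGGC in 13% and 2.75%, and the CRE motif TGACGTCA in 5.19% and 1.79%. The HIF core ACGTG was in 22.1% and 19.6%, and the SP1 motif GGGCGG in 42.9% and 35.7%. Over the 13204 promoters of genes in the count table the shares were 1.99% for the NRF1 palindrome, 4.94% for its core, 16.8% for ETS, 4.34% for YY1, 2.9% for CRE, 24.9% for the HIF core and 59.5% for SP1. The shares are descriptions, with no test of their differences, and a match is not a binding site.

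Of the 6 called members with a promoter in the table, 3 hold NRF1 core, ETS, CRE or YY1 letters, and their promoters are shown with those letters in capitals, written along the gene's own strand.
Atp5k promoter, chr5:108434350-108434649 (- strand): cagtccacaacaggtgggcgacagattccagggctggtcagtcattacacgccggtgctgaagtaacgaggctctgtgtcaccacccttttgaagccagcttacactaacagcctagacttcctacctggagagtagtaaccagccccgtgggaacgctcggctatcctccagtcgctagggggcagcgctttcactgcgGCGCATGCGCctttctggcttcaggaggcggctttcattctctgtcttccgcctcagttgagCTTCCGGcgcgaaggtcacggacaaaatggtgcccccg
Ndufa6 promoter, chr15:82354242-82354541 (- strand): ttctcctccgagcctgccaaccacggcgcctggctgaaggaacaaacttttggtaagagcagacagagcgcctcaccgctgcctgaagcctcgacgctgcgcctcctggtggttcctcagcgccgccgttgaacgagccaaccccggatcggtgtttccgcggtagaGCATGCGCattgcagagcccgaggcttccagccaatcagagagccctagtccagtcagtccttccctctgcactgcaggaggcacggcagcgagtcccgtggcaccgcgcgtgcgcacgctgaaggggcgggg
Ndufs7 promoter, chr10:80249199-80249498 (+ strand): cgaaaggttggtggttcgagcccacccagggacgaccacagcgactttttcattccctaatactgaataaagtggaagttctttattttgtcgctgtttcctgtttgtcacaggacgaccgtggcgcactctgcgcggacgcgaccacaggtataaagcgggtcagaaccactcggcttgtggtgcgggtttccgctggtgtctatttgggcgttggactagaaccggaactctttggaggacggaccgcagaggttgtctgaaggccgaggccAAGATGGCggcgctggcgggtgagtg
Atp5k carries the NRF1 palindrome and an ETS motif in the reverse orientation (CTTCCGG), Ndufa6 the NRF1 core and Ndufs7 the YY1 motif near its start. The promoters of Ndufa1, Atp5g3 and Cox7a2l hold none of these 4 motifs. Matched promoters belonged to genes called higher and to genes called lower.

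Levels were compared between genes as CPM per kb of merged exon length, averaged over the 8 animals. Cox6a1, the common isoform of subunit 6a of complex IV, stood highest at 304 ± 23.2 CPM per kb (SD, n = 8). It was followed by the common complex IV subunits Cox8a at 236 ± 17.0 and Cox6b1 at 231 ± 10.6 CPM per kb, then by Atp5a1, the alpha subunit of the ATP synthase head, at 211 ± 17.8 CPM per kb. Neighbours among these last genes did not differ beyond their spread. The highest of complex I was Ndufa1 (117 ± 12.8), of complex II the membrane anchor Sdhd (75.7 ± 3.61) and of complex III the small subunit Uqcr10 (91.6 ± 3.73). The median gene stood at 24.1 CPM per kb in complex I, 49.5 in complex II, 52.4 in complex III, 49.5 in complex IV and 46 in complex V. Per kb of the main transcript these medians were 41.7, 68.6, 68.9, 115 and 107, so that complexes IV and V stood above II and III on that length only. Over merged exons 9 genes exceeded 100 CPM per kb and 16 lay under 5 CPM per kb. The 16 include 4 of the 8 complex I assembly factors (Ndufaf2, Ndufaf5, Ndufaf6 and Ndufaf7) and the rare isoforms Cox4i2, Cox6a2, Cox6b2 and Cox7a1. The others are the subunits Ndufab1, Ndufb2, Ndufb4, Atp5g1, Atp5g2 and Atp5l, with Uqcrh-ps1 and Atp5s. Of the stretches of these subunits, 10.9%, 21.8%, 35.2%, 7.63%, 100% and 76%, in that order, were shared with other genes. The 7.63% of Atp5g1 is a share of a main transcript of 4715 bases, of which only 411 are coding. What this sharing adds to their low values was not tested. Merged exons include retained introns, and both the counts and the order depend on the length used. Per kb of the main transcript 29 genes exceeded 100 CPM per kb and 10 lay under 5. Of those 4 assembly factors only Ndufaf6 (3.49) lay under 5. Of the low subunits, Ndufb2 (43.9) and Atp5l (14.4) did not, while Ndufab1 (3.73), Ndufb4 (3.6), Atp5g1 (3.1) and Atp5g2 (3.99) did. Per kb of the main transcript Atp5b, the catalytic beta subunit, stood highest at 406 ± 59.6, ahead of Cox6a1 at 374 ± 28.4 CPM per kb, a difference within their spread. On that length the highest of complex I was Ndufb8 (165 ± 7.33), of complex II Sdhb (109 ± 2.29) and of complex III Uqcrh (151 ± 7.56).

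**Figure D1:**
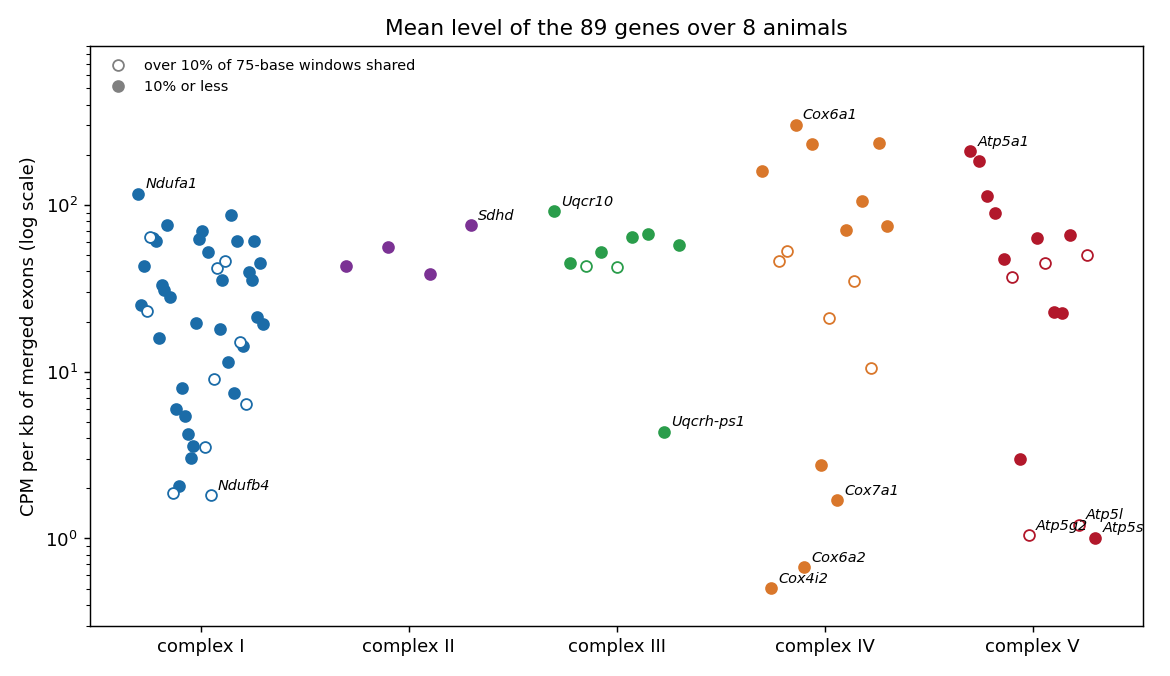
Mean CPM per kb of merged exons over the 8 animals (log axis) for each of the 89 genes, grouped by complex. Open circles are the 22 genes with over 10% of their 75-base stretches shared with another gene. Cox6a1 at 304 CPM per kb is the highest, and Cox4i2 (0.504) and Cox6a2 (0.671) are the lowest.

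The deficient and control monocytes differed little in these genes. Of the 87 genes with enough counts to test, 7 were called (edgeR quasi-likelihood test with the label set in the model, adjusted p under 0.05), 8.05% against 13.9% of all 12178 genes tested. In deficient monocytes 4 members were higher, Ndufa1, Cox6c, Atp5g3 and Atp5k, against a background of 6.59% called higher. The 3 lower members were Ndufa6, Ndufs7 and Cox7a2l, against a background of 7.35% called lower. The median size of the log2 difference was 0.0778 for the members and 0.156 for all genes tested, and the members' log2 fold changes of deficient over control ran from -0.34 (Cox6b2, not called) to 0.31 (Cox6c). The estimate was above 0 for 53 members and below 0 for 34, with a median of 0.04. At an unadjusted p under 0.05 there were 12 members (13.8%), against 3761 of all genes tested (30.9%).

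The small differences came with small errors. The median SE of the log2 fold change was 0.0642 for the members and 0.100 for all genes tested, and the median coefficient of variation among controls was 6.62% for the members and 13.6% for all genes. The 95% interval lay within 0.5 log2 units of 0, a 1.41-fold difference, for 79 of 87 members (90.8%) and for 60.4% of all genes tested. This band was chosen after the values were seen. The members whose interval reached past it were Ndufs5, Ndufaf8, Uqcrh-ps1, Cox6b2, Cox7a1, Cox7a2l, Atp5g2 and Atp5s. Members were also more abundant, with a median mean level of 60.9 CPM against 25.3 CPM.

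**Figure D2:**
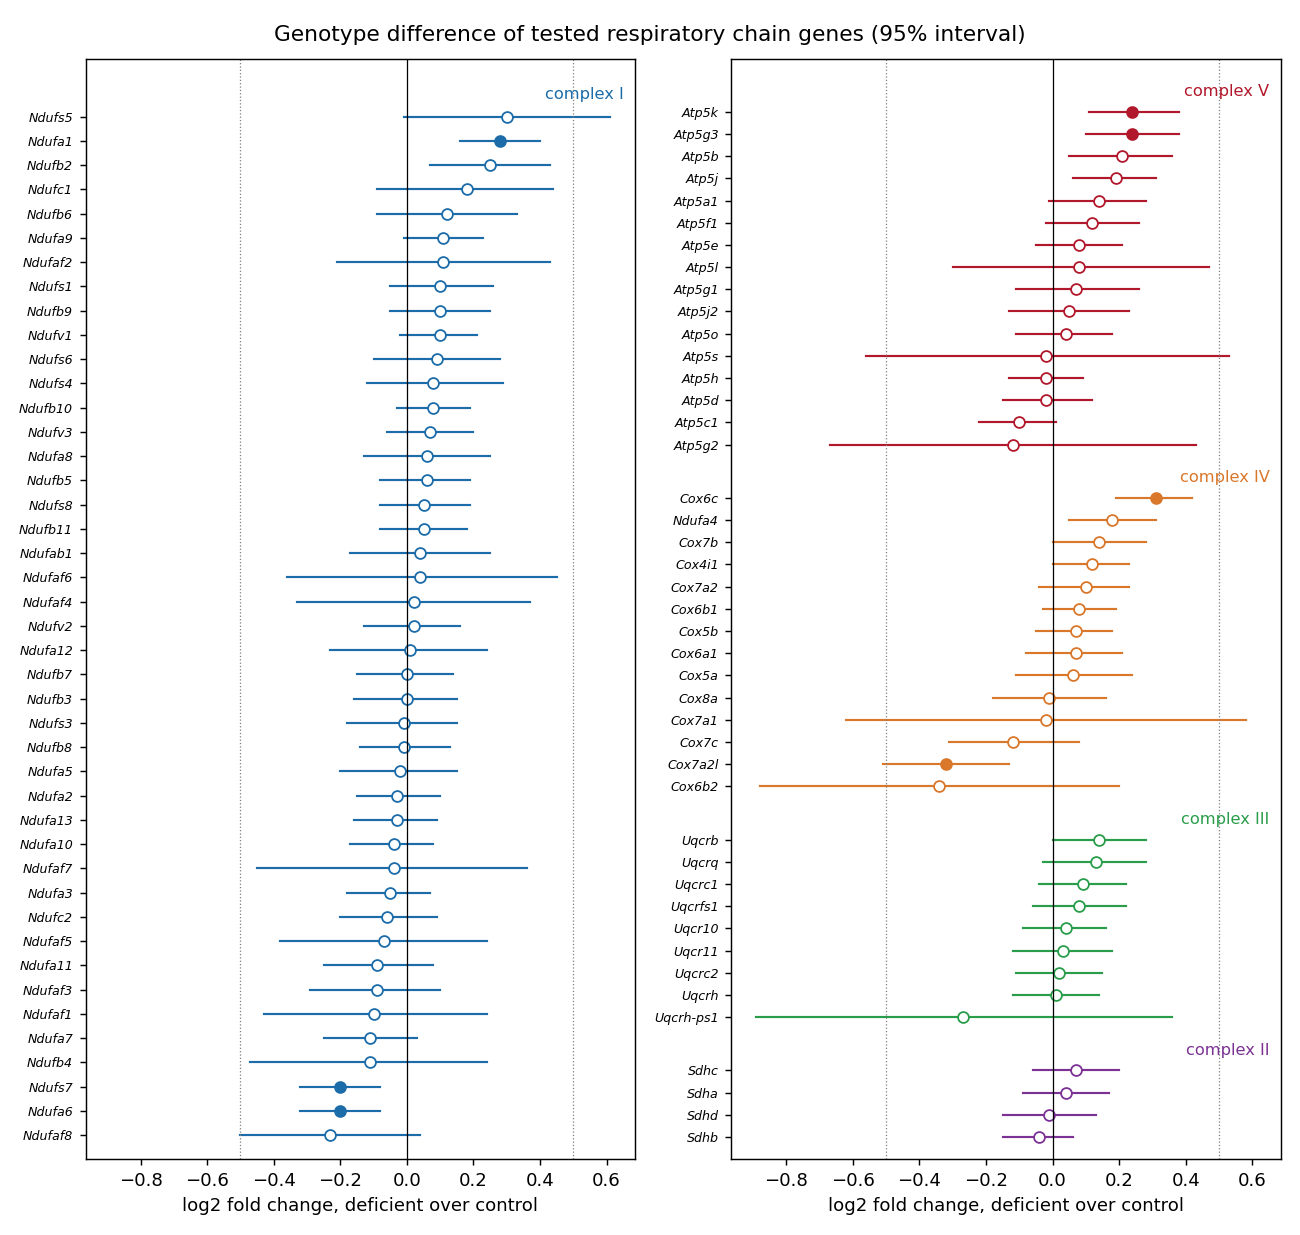
Log2 fold change of deficient over control with its 95% interval for the tested genes, by complex, with 1 gene of complex I not drawn; filled points are the 7 called genes and dotted lines mark 0.5 log2 units either way. All 4 intervals of complex II lie inside the dotted lines, and the widest intervals belong to genes at low levels such as Cox6b2 and Uqcrh-ps1.

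Complex I takes electrons from NADH, and 1 of its 44 tested genes was called higher and 2 lower. Ndufa1, an X-linked accessory subunit of the membrane arm (ENSMUSG00000016427, GRCm38 chromosome X, 37187588 to 37191163), was at 43.7, 45.0, 44.2 and 44.4 CPM in controls 2, 3, 10 and 11 and at 51.4, 54.2, 56.9 and 53.2 CPM in deficient animals 5, 6, 12 and 13. All 4 deficient animals lay above all 4 controls, whose values spanned a narrow range. The log2 fold change was 0.28 (SE 0.05, edgeR adjusted p = 0.0112). Taken alone, the lower-numbered label set gave 0.25 and the higher-numbered one 0.31.

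Ndufs7, an iron-sulfur core subunit of the module that reduces ubiquinone (ENSMUSG00000020153, chromosome 10, 80249121 to 80256794), was at 68.8, 66.6, 61.7 and 63.0 CPM in controls, against 57.1, 57.9, 58.6 and 53.3 CPM in deficient animals. The deficient animals all lay under the controls, and it was the only tested member lower with no overlap of the groups. The log2 fold change was -0.20 (SE 0.05, edgeR adjusted p = 0.0407). Ndufa6, an accessory subunit of the peripheral arm (ENSMUSG00000022450, chromosome 15, 82350140 to 82354322), was at 70.4, 73.4, 55.1 and 56.2 CPM in controls, against 65.4, 60.8, 49.5 and 46.9 CPM in deficient animals. The groups overlapped over all animals, since the label sets differed more than the genotypes, but within each set both deficient animals lay under both controls. Its log2 fold change was -0.20 (SE 0.05, edgeR adjusted p = 0.0361).

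The core subunits Ndufv1, Ndufv2, Ndufs1, Ndufs3 and Ndufs8 were not called. Ndufv1, the flavin subunit that takes electrons from NADH, was at 54.1 ± 3.18 CPM (SD, n = 4) in controls, against 57.7 ± 1.34 CPM in deficient animals. Ndufs1, Ndufs3, Ndufs8 and Ndufv2 had log2 fold changes of 0.10, -0.01, 0.05 and 0.02. Of the accessory subunits, Ndufb2 came nearest to a call, with a log2 fold change of 0.25 and an edgeR adjusted p of 0.0718. The 8 Ndufaf assembly factors were at low levels, and their log2 fold changes ran from -0.23 (Ndufaf8) to 0.11 (Ndufaf2) with none called.

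Complex II, succinate dehydrogenase, is the only complex with all its subunits in the nucleus, and none of its 4 genes was called. Sdhb, the iron-sulfur protein, was at 127, 125, 129 and 126 CPM in controls, against 126, 124, 121 and 122 CPM in deficient animals. The groups overlapped, and the log2 fold change was -0.04 (95% interval -0.15 to 0.06, edgeR adjusted p = 0.587). Sdhc, a membrane anchor, was at 122, 116, 130 and 121 CPM in controls, against 117, 128, 140 and 127 CPM in deficient animals, also overlapping (log2 fold change 0.07, edgeR adjusted p = 0.460). For Sdha, the flavoprotein, and the anchor Sdhd the log2 fold changes were 0.04 and -0.01.

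In complex III none of the 9 genes was called, although 8 estimates lay above 0. Uqcrb, a ubiquinone-binding small subunit, was at 35.1, 36.6, 36.9 and 34.2 CPM in controls, against 36.8, 40.6, 40.8 and 38.8 CPM in deficient animals. The groups met only at the lowest deficient and highest control animal, and the log2 fold change was 0.14 (edgeR adjusted p = 0.168). Uqcrq, another small subunit, had a log2 fold change of 0.13 (edgeR adjusted p = 0.238). The abundant core proteins Uqcrc1 and Uqcrc2, with log2 fold changes of 0.09 and 0.02, and the Rieske iron-sulfur protein Uqcrfs1 (0.08) were not called. Uqcrh-ps1 had 11 to 23 counts per animal and an interval from -0.89 to 0.36, too few counts to set a narrow limit.

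In complex IV, cytochrome c oxidase, 1 of 14 tested genes was called higher and 1 lower. Cox6c (ENSMUSG00000014313, chromosome 15, 35925886 to 35938246), an accessory subunit, was at 67.8, 66.5, 68.5 and 66.0 CPM in controls, against 77.8, 82.8, 85.6 and 86.1 CPM in deficient animals. The groups were apart by more than the whole range of the controls. The log2 fold change was 0.31 (SE 0.05, edgeR adjusted p = 0.00774), the smallest adjusted p of any member. The single label sets, lower-numbered first, gave 0.26 and 0.35.

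Cox7a2l (ENSMUSG00000024248, chromosome 17, 83501918 to 83517330), also called SCAFI, ties complexes III and IV into a supercomplex, and C57BL/6 mice are known to carry a shortened form of the protein. It was at 65.5, 74.8, 43.1 and 45.9 CPM in controls, against 63.3, 49.8, 33.6 and 37.0 CPM in deficient animals. The groups overlapped over all animals, and within each label set both deficient animals lay under both controls. The log2 fold change was -0.32 (SE 0.08, edgeR adjusted p = 0.0361), and the difference between the label sets, -0.67, was larger. Per kb, Cox7a2l made up 35.4% ± 6.82 (SD, n = 4) of the messages of subunit 7a and its relatives in controls and 29.3% ± 7.99 in deficient animals, with Cox7a2 making up 63.0% and 69.1%. The Cox7a2l shares overlapped over all animals. Within the lower-numbered set they were 39.6% and 42.6% for controls and 38.5% and 33.3% for deficient animals, and within the higher-numbered set 28.2% and 31.1% against 21.5% and 23.8%, so that both deficient animals lay under both controls in each set.

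The tissue isoforms of complex IV were dominated by the common form in every animal. Cox4i2, the lung isoform of subunit 4 that low oxygen is known to induce, had 2, 9, 3 and 10 counts in controls and 3, 4, 9 and 6 counts in deficient animals, too few to test, and made up 0.349% and 0.285% of subunit 4 messages per kb in controls and deficient animals. Cox4i1, the common isoform, was at 225 to 245 CPM in controls, against 252 to 261 CPM in deficient animals. These ranges did not overlap, yet with a log2 fold change of 0.12 the gene was not called (edgeR adjusted p = 0.148). Cox6a2, the heart and muscle isoform of subunit 6a, had 4 to 14 counts in controls and 1 to 8 in deficient animals and was not tested, and Cox6a1 had a log2 fold change of 0.07 (edgeR adjusted p = 0.530). Cox6b2, the testis isoform, was at 2.40 to 5.12 CPM and 1.73 to 3.02 CPM with a wide interval from -0.88 to 0.20, and its partner Cox6b1 had a log2 fold change of 0.08. Cox7a1, the muscle isoform of subunit 7a, was at 0.623 to 1.08 CPM over all animals, with an interval from -0.62 to 0.58. Cox8a, the only subunit 8 gene among the members, had a log2 fold change of -0.01. Ndufa4 was at 95.4, 94.3, 104 and 96.3 CPM in controls, against 100, 110, 120 and 111 CPM in deficient animals. The deficient values were the higher within each label set, but the test fell short of a call (log2 fold change 0.18, edgeR adjusted p = 0.0690).

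In complex V, the ATP synthase, 2 of 16 genes were called higher and none lower. Atp5g3 (ENSMUSG00000018770, chromosome 2, 73908447 to 73911326), which encodes ring subunit c, was at 117, 113, 142 and 134 CPM in controls, against 132, 151, 164 and 150 CPM in deficient animals. The groups overlapped over all animals, and within each set both deficient animals lay above both controls. The log2 fold change was 0.24 (SE 0.06, edgeR adjusted p = 0.0340). Atp5g1 and Atp5g2, which encode the same ring subunit, had log2 fold changes of 0.07 and -0.12, neither called, and the sign for Atp5g2 held in 15 of 18 alternative settings. Per kb of merged exons Atp5g3 made up 93.5% ± 0.490 (SD, n = 4) of ring subunit messages in controls and 94.4% ± 0.473 in deficient animals. All stretches of Atp5g2 are shared with Gm10175, so its counts cannot be tied to it alone and its part in these shares is uncertain. The shares also depend on the length used. Per kb of the main transcript, averaged over all animals, Atp5g3 stood at 193 CPM per kb, Atp5g1 at 3.1 and Atp5g2 at 3.99. These transcripts have 714, 4715 and 441 bases, of which 426, 411 and 441 are coding. Before division by length, the control means were 127 CPM for Atp5g3, 14.3 for Atp5g1 and 1.83 for Atp5g2. The long Atp5g1 transcript thus widens its gap to Atp5g3 on either length. Whether the cells make that long form was not tested.

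Atp5k (ENSMUSG00000050856, chromosome 5, 108433244 to 108434448), the subunit e that is known to help synthase dimers form, was at 37.7, 36.9, 37.0 and 38.0 CPM in controls, against 41.7, 42.8, 43.9 and 48.9 CPM in deficient animals. The deficient animals all lay above the controls. The log2 fold change was 0.24 (SE 0.06, edgeR adjusted p = 0.0310). Atp5b, the catalytic beta subunit, was at 668, 644, 824 and 751 CPM in controls, against 682, 793, 957 and 908 CPM in deficient animals, with overlapping groups. Within each label set both deficient animals lay above both controls. Atp5b missed a call with a log2 difference of 0.21 (SE 0.07, edgeR adjusted p = 0.0777). It was called in 3 of 19 alternative settings, among them DESeq2 (DESeq2 adjusted p = 0.0361). The side-stalk subunit Atp5j had a log2 fold change of 0.19 (edgeR adjusted p = 0.0584), with 63.5 to 69.2 CPM in controls, against 71.5 to 80.1 CPM in deficient animals, ranges that did not overlap. The alpha subunit Atp5a1 (0.14) and the central-stalk subunits Atp5c1 (-0.10), Atp5d (-0.02) and Atp5e (0.08) were not called.

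**Figure D3:**
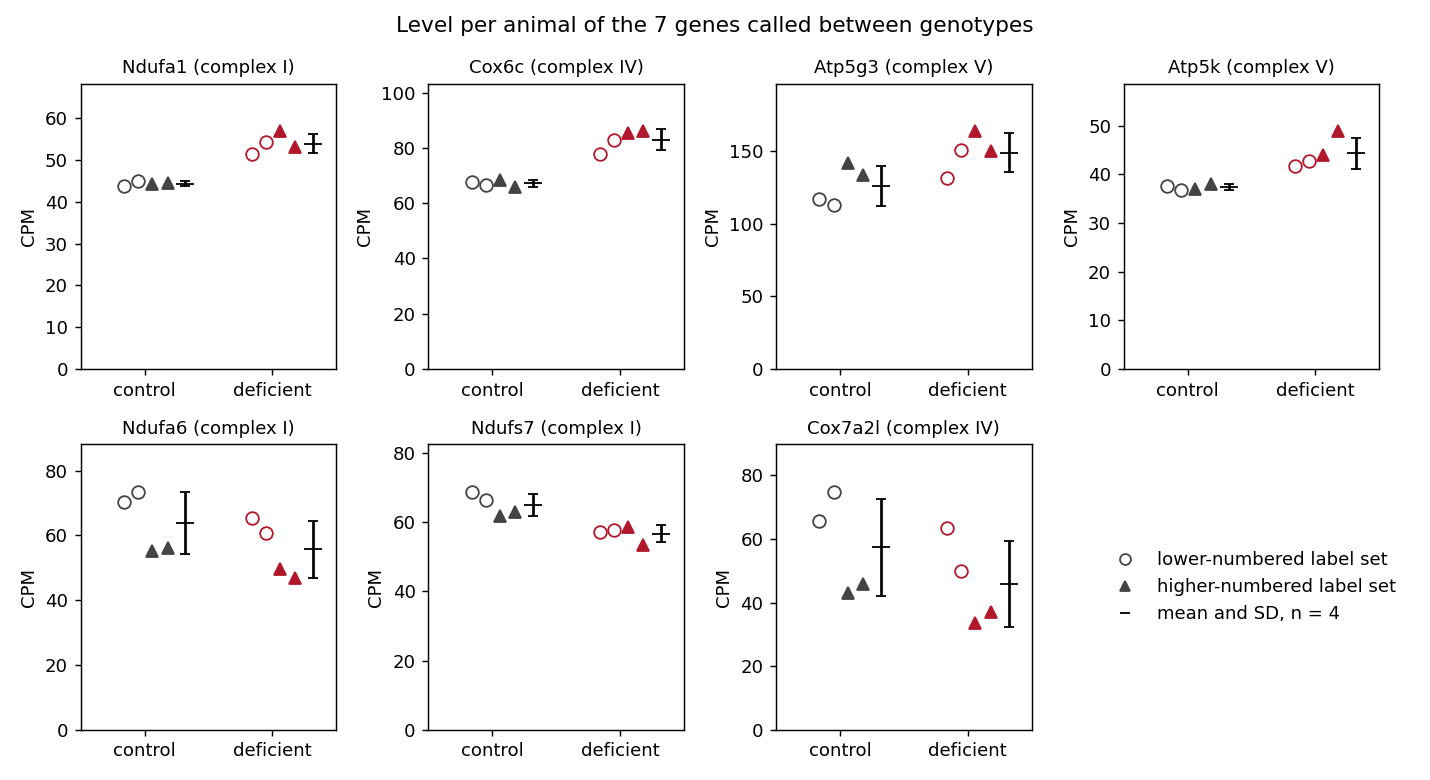
CPM per animal of the 7 genes called between genotypes, with controls in grey and deficient animals in red; open circles are the lower-numbered and triangles the higher-numbered label set, and bars are mean and SD (n = 4). Ndufa1, Cox6c, Atp5k and Ndufs7 separate the groups over all animals, while Atp5g3, Ndufa6 and Cox7a2l do so only within each label set.

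The 7 calls rest on the label set being in the model and on all 8 animals. Without it no gene of the whole table was called by edgeR (0 members; 0 of 12178 genes), although the members' log2 fold changes were the same to 2 decimals for the called genes. Without it Cox6c and Ndufa1 each had an edgeR adjusted p of 0.290. Leaving out 1 animal at a time gave 2 to 7 called members, and each omission but that of deficient animal 5 left 2 or 3. Fewer animals leave less power for every gene. The shares of all genes called in these runs are not given here, so the fall cannot be set against the background. Over 19 alternative settings Cox6c was called in 16 and Ndufa1 in 15, and the other called members in 6 (Ndufs7) to 10 (Atp5g3). Each of the 7 kept its sign in all 19. Settings that change only the adjusted p threshold reuse the same estimate, so the sign could not differ there. All settings draw on the same animals. Over all animals the groups did not overlap for 5 members higher and 1 lower, 6.90% of the 87 against 7.02% of all genes tested (3.62% higher, 3.40% lower). Within both label sets they did not overlap, in the same direction, for 16 members higher and 4 lower, 23.0% against 27.3% of all genes (13.7% higher, 13.6% lower). By direction the within-set shares of the members were 18.4% higher and 4.6% lower, and those over all animals 5.75% higher and 1.15% lower. The differences from the background shares were not tested.

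Summed over the members, every complex overlapped between the groups over all 8 animals. Within the label sets, complex V alone among the 5 complexes had both deficient animals above both controls in each set, and no complex had them below. Complex I totalled 2014 ± 60.2 CPM (SD, n = 4) in controls, against 2030 ± 56.8 CPM in deficient animals, and complex II 519 ± 25.0 and 525 ± 12.5 CPM. Complex III totalled 702 ± 33.9 and 738 ± 33.8 CPM, complex IV 1356 ± 39.5 and 1435 ± 72.9 CPM, and complex V 2469 ± 151 and 2687 ± 205 CPM. The deficient mean was higher by 0.812% in complex I and by 8.84% in complex V. Complex V lay at 2329 to 2679 CPM in controls and at 2416 to 2909 CPM in deficient animals. Its largest parts were Atp5b (722 ± 82.2 and 835 ± 123 CPM) and Atp5a1 (632 ± 48.1 and 694 ± 49.2 CPM), neither of them called. Of the 16 genes of complex V, 11 had a genotype estimate above 0 and 5 below. All 89 genes together came to 7059 ± 269 and 7415 ± 348 CPM. Of the 13 respiratory genes of the mitochondrial genome, 7 were in the table (mt-Nd1, mt-Nd2, mt-Nd4, mt-Nd5, mt-Nd6, mt-Cytb and mt-Co1), and none was called. They summed to 18737 ± 847 CPM in controls, against 18769 ± 698 CPM in deficient animals, with single log2 fold changes from -0.11 to 0.17.

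**Figure D4:**
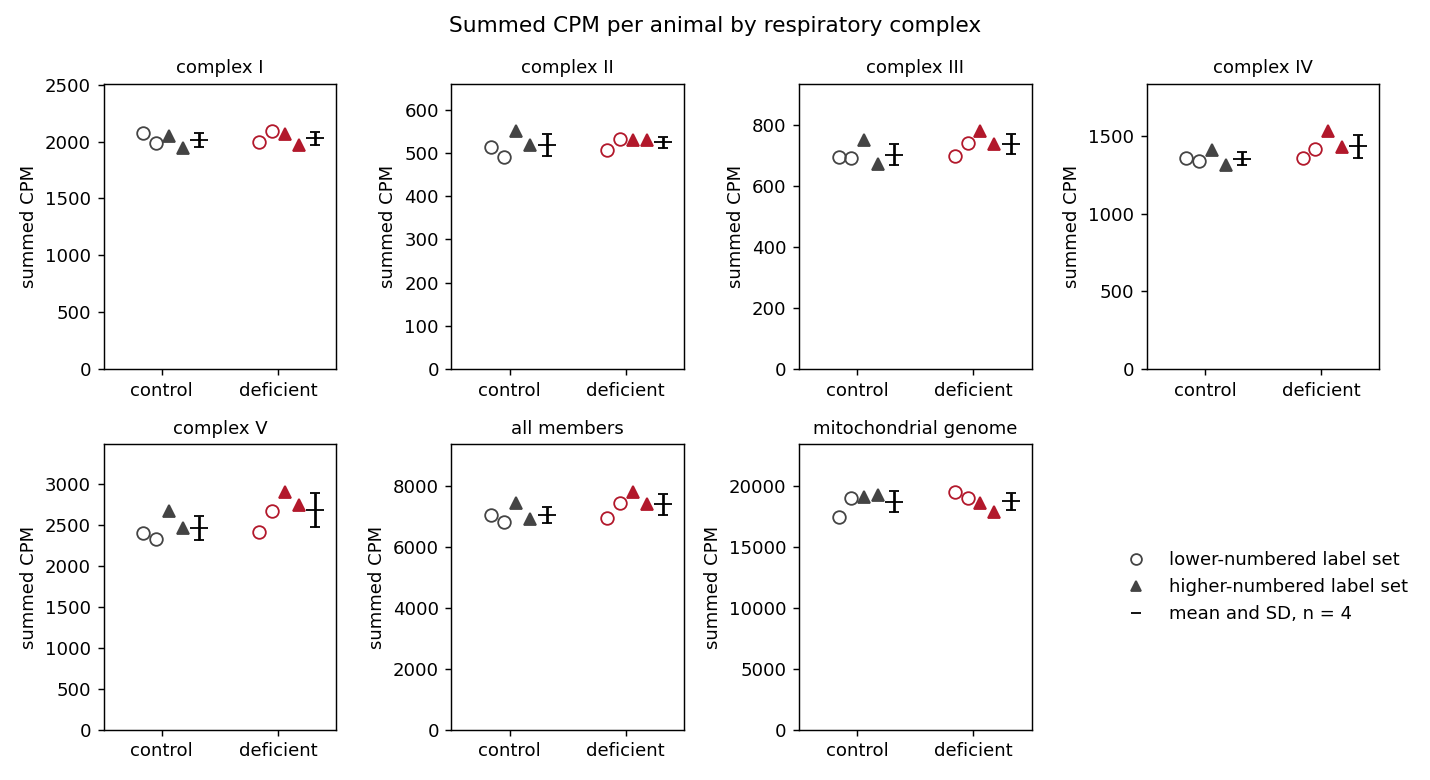
Summed CPM per animal over the members of each complex, all members and the 7 listed genes of the mitochondrial genome; open circles are the lower-numbered and triangles the higher-numbered label set, and bars are mean and SD (n = 4). In each panel the control and deficient animals overlap over all 8 animals, including complex V at 2329 to 2679 against 2416 to 2909 CPM, where within each label set both deficient animals lie above both controls.

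The respiratory genes were also compared between the label sets. Marker sums moved with the sets too: endothelial markers summed to 24.7 to 75.0 CPM in the lower-numbered set and 127 to 195 CPM in the higher-numbered one, and erythroid markers to 1.60 to 3.82 and 5.74 to 7.74 CPM, and their part in these results was not tested. Between the higher- and lower-numbered sets 10 of 87 members were called (11.5%), 5 higher and 5 lower. Over all genes tested the share was 36.9% (18.6% higher, 18.3% lower). Leaving out 1 animal at a time gave 4 to 11 members, with no background share given here for these runs. The sets did not overlap for 2 members higher and 5 lower, 8.05% against 24.3% of all genes (11.6% higher, 12.8% lower). The difference between these shares was not tested. Ndufaf7, an arginine methyltransferase needed to assemble complex I (ENSMUSG00000024082, chromosome 17, 78937136 to 78948052), had 190, 261, 317 and 209 counts in animals 2, 3, 5 and 6 of the lower-numbered set and 134, 134, 93 and 129 counts in animals 10, 11, 12 and 13. The sets did not overlap, with a log2 difference of -0.94 (SE 0.18, edgeR adjusted p = 0.00357). Cox7a2l was next among the lower members at -0.67 (edgeR adjusted p = 5.39e-04), followed by Atp5l (-0.60), Ndufa6 (-0.38) and Ndufb11 (-0.17). Those higher in the higher-numbered set were Atp5b at 0.30 (edgeR adjusted p = 0.00845), Atp5g3 at 0.20 (0.0282), Cox7b at 0.20, Ndufa9 at 0.18 and Cox7a2 at 0.17. The interaction test of genotype with label set, which has 2 animals in each combination, called no member (edgeR, 0 of 87, against 0.0411% of all genes tested, 0.0246% higher and 0.0164% lower). At an unadjusted p under 0.05 there was 1 member, Ndufc1 (1.15%), against 817 of all genes tested (6.71%), and DESeq2 and limma voom also called 0 members. The members' interaction terms had a median SE of 0.131, against 0.0642 for the genotype difference, and their 95% interval lay within 0.5 log2 units of 0 for 63 of 87. A difference between the sets was therefore not detectable for many members, and its absence was not shown. Ndufc1, an accessory subunit of the membrane arm, had a genotype log2 difference of -0.05 in the lower-numbered set and 0.40 in the higher-numbered set, and Ndufaf7 had 0.25 and -0.40, neither called.

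Genes that build, feed or regulate the chain were counted from lists beside the members. Over all genes tested 13.9% were called, 6.59% higher and 7.35% lower. Lists of 4 to 6 genes are too short to set against such a share. None was called among the assembly factors outside the member rule, which are 10 for complex I, 4 for complex II, 6 for complex III, 23 for complex IV and 5 for complex V. None was called among 16 regulators of mitochondrial biogenesis, and their median log2 fold change was 0.0130. Of 21 electron carriers and other entries to the chain, 1 was higher and none lower. That gene was Etfa, a subunit of the electron transfer flavoprotein of fatty acid oxidation, at 42.7 ± 5.07 CPM (SD, n = 4) in controls, against 49.5 ± 6.14 CPM in deficient animals (log2 fold change 0.21, edgeR adjusted p = 0.0470). Of 18 genes of the tricarboxylic acid cycle and pyruvate dehydrogenase, 1 was higher, the shared dehydrogenase subunit Dld (0.24, edgeR adjusted p = 0.0333). Of 21 genes of supercomplexes, the inner membrane and its exchange, 3 were higher and none lower (14.3%, near the share of all genes). These included Higd1a, which low oxygen is known to induce, at 15.0 ± 1.26 and 23.3 ± 6.61 CPM (0.61, edgeR adjusted p = 0.0121). Vdac1, the outer membrane channel, was also higher (0.31, edgeR adjusted p = 0.0263). Higd1a is counted again in the low-oxygen list that follows.

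The last pathway list holds genes known to adjust respiration to low oxygen. Of its 12 tested genes 10 were higher and none lower (83.3%), against 13.9% of all genes called in either direction. The list's median log2 fold change was 0.700, beside 0.04 for the members and -2.78e-04 for all genes. Between the label sets 9 of the same 12 genes were called higher in the higher-numbered set and none lower (75.0%), with a median log2 difference of 0.608. Pdk1, the kinase that switches off pyruvate dehydrogenase, was at 32.7 ± 7.73 CPM (SD, n = 4) in controls, against 60.0 ± 20.9 CPM in deficient animals (0.84, edgeR adjusted p = 0.00193). Ankrd37, a known target of HIF-1, was at 7.91 ± 1.94 and 22.8 ± 10.8 CPM (1.45, edgeR adjusted p = 0.00206). The list was drawn up with earlier results of these data known, so its direction is not independent evidence, and of its isoform Cox4i2 there were too few counts to test. Among other short, abundant messages, 1 of 82 cytosolic ribosomal protein genes was higher (Rpl27) and none lower, and none of 77 mitochondrial ribosomal protein genes was called.

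**Figure D5:**
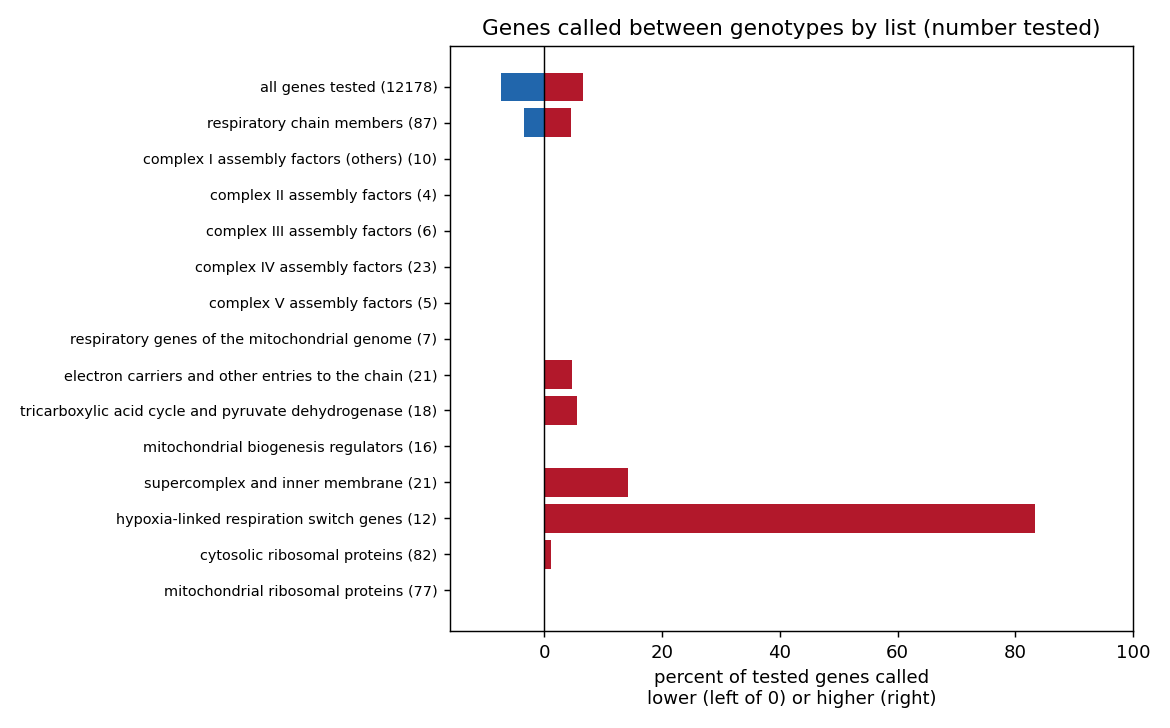
Percent of tested genes called higher (right, red) or lower (left, blue) in deficient monocytes for all genes, the respiratory members and each of 13 lists, with the number tested in brackets. The oxygen-linked list stands at 83.3%, and the members at 8.05% against 13.9% of all genes. Higd1a is in both the supercomplex and the oxygen-linked list.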

How the data were processed

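The authors deposited raw counts per gene for 8 animals, 4 per group, and a second block of 8 normalised columns that was not used. GRCm38, HTSeq 0.12.4, STAR 2.7.3a, cutadapt and DESeq2 1.26.0 appear in the submitters' processing notes, with no roles stated. Strandedness is not given in the sources used here, so overlapping genes on opposite strands may mix. The table has 15336 genes, each with at least 6 counts in some animal.

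Counts were tested in R 4.3.3 with edgeR 4.0.16: TMM scaling (factors 0.944 to 1.03), filterByExpr (minimum count 10, minimum total 15; 12178 genes tested), a quasi-likelihood F-test of genotype with the label set as covariate, two-sided, and Benjamini-Hochberg adjustment over all genes tested. Calls were made at an adjusted p under 0.05. Intervals are the fitted coefficient with its SE, taken from the F statistic. CPM used the same scaling. DESeq2 1.42.0 and limma voom (limma 3.58.1) were alternatives. The code was tested on simulated data. Each library is labelled as 1 animal. The p-values of the main model measure the spread between these animals that is left after genotype and label set are fitted.

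Exon lengths, transcripts and positions come from GENCODE M21 (GRCm38), which held 15324 of the gene identifiers. Members and lists were chosen with earlier results of these data known. Named members were, per complex and direction, up to 4 called genes by smallest p, the 2 smallest p where a complex had no call, the highest per length, the isoforms with their partners, the 2 largest label set differences in each direction and any called interaction. For each list up to 2 called genes were named. Other genes were named after their values were seen. The values of 1 member are not reported here, though it is in all counts.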

Additional observations from a re-analysis of the deposited data

Results flagged for a closer look

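In 70 groups of 4 animals, covering the named members and the sums, 5 had 1 animal far from the other 3. Chance gives about 1 in 20 such groups, and the screen found 5 of 70. Cox4i1 was at 252 CPM in deficient animal 13 and at 260, 260 and 261 CPM in the other deficient animals, a narrow group in which a small gap stands out. Cox6b2 was at 1.73 CPM in deficient animal 12 and at 2.90, 3.02 and 3.02 CPM in the others. Atp5g1 was at 12.6 CPM in control 3 and at 14.6, 14.9 and 14.9 CPM in the other controls. The summed CPM of complex II was 507 in deficient animal 5 and 530, 530 and 534 in the others. The summed CPM of the mitochondrial genome list was 17476 in control 2 and 19051, 19136 and 19286 in the other controls. No animal appears more than once among these 5.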

How the results depend on the processing

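The 7 members called between genotypes became 0 with no covariate in the model, 1 at an adjusted p under 0.01 (Cox6c; 1.15%, against 3.36% of all genes), 11 at an adjusted p under 0.10 (12.6%, against 22.3%), and 0 within either label set (lower-numbered 0, higher-numbered 0), each of which has 2 animals per group. The 10 members called between label sets became 4 without genotype in the model, 4 at an adjusted p under 0.01 (21.1% of all genes) and 16 at an adjusted p under 0.10 (46.5% of all genes). Leaving out each animal in turn gave 2 to 7 members for genotype and 4 to 11 for the label sets, and 0 to 0 for the interaction. No share of all genes is given here for these runs, for the single label sets or for the model without genotype. Those counts are therefore not set against a background. Every other alternative run (DESeq2, limma voom, RLE and upper-quartile factors, both count filters) kept these counts within 1.5 times. The summed CPM of each complex moved by less than the spread between animals under the other factors and with each animal left out. Counted after the data were seen, the members with at most 10% of their stretches shared gave 5 calls, without Cox6c and Cox7a2l, and the set without assembly factors and the pseudogene gave 7. Of 491 values of single named members under these alternatives, 425 kept their side of the threshold, 62 lost a call and 4 gained one. No called member changed sign, though a change of threshold alone cannot alter a sign. No paired analysis was possible because no animal number occurs in both groups. Fewer animals, by construction, leave less power. Of rare isoforms, depth allowed no test of Cox4i2 and Cox6a2.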
